A study of Rattus norvegicus with 6 samples.

Results

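Acyl-CoA thioesterases (ACOT enzymes) split fatty acyl-CoA into a free fatty acid and coenzyme A, and so work against the acyl-CoA synthetases that activate fatty acids. The 7 genes described here, Acot1, Acot2, Acot3, Acot4, Acot7, Acot8 and Acot12, were matched by symbol to 12 of the 61537 probes of the array, through the RefSeq accession given for each probe. They are 7 of 15645 genes that could be named, and all 7 were among the 11939 genes bright enough to test. The list was made with the CCl4-minus-corn-oil values of these arrays known, so the differences of its members are given as a description, without a test. Liver RNA came from 6 male Sprague-Dawley rats, an outbred stock, bought at 5 weeks of age. The strain is given as Crl:CD(SD). Carbon tetrachloride (CCl4) was dosed at 100 mg/kg/day in 3 of the rats, and the other 3 were given the vehicle, corn oil. CCl4 is a solvent that liver cytochrome P450 turns into reactive products, and it is used to injure and scar the liver. The labels disagree on exposure, since the design text places the measurement at 28 days and the treatment protocol gives 9 weeks of dosing.

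ACOT enzymes fall into type I enzymes, which share an alpha/beta-hydrolase fold and lie in a gene cluster, and type II enzymes, which have a hotdog fold and are unrelated in sequence. They work in the cytosol, mitochondria or peroxisomes. In rodent liver Acot1 is known as the cytosolic and Acot2 as the mitochondrial type I enzyme, and Acot3 and Acot4 are peroxisomal in the mouse. Among the type II enzymes Acot7 and Acot12 are cytosolic and Acot8 is peroxisomal. Several of these genes are known targets of PPAR-alpha, the nuclear receptor that senses fatty acids in hepatocytes and binds DNA with RXR at a direct repeat of AGGTCA spaced by 1 base.

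The start regions of 4 members are shown because they belong to the genes with the largest differences in each direction, Acot7 apart, and to genes with a sequence near that repeat. Each runs 5′ to 3′ on the strand of the gene, from 250 bases before to 50 bases after a start annotated in RefSeq on build GRCr8, and capitals mark a direct repeat of AGGTCA with any 1 base between the copies, on either strand and with at most 1 mismatch over both copies.
Acot1: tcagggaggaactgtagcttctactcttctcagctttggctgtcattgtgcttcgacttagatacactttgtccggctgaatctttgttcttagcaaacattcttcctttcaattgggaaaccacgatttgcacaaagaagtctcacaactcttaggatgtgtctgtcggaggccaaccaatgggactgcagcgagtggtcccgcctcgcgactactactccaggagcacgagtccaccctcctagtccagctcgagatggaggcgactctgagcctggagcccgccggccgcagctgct
Acot3: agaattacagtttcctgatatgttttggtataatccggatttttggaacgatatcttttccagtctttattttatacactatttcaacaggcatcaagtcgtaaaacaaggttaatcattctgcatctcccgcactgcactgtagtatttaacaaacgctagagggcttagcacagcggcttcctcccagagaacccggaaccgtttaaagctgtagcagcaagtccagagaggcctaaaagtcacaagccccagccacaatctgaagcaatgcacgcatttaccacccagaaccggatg
Acot4: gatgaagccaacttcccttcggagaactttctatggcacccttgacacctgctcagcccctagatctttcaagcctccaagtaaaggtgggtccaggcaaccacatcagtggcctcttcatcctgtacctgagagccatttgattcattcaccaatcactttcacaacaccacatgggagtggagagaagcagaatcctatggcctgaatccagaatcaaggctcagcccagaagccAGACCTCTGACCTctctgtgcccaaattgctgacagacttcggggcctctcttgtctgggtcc
Acot8: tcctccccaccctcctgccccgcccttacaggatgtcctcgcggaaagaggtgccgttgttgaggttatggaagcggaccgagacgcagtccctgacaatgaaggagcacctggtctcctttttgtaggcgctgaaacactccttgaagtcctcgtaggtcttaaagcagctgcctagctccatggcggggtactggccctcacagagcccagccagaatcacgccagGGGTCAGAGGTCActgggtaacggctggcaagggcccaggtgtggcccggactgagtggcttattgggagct
These windows are chr6:109367024-109367323 (plus strand) for Acot1, chr6:109413447-109413746 (plus strand) for Acot3, chr6:109399604-109399903 (plus strand) for Acot4 and chr3:173962139-173962438 (minus strand) for Acot8. In Acot4 the match lay at -13 to -1, with the start base at 0, and read AGGTCAGAGGTCT on the opposite strand. In Acot8 it lay at -22 to -10 and read GGGTCAGAGGTCA. Acot12 also held a match, AGGTGAGAGGTCA on the opposite strand, at -105 to -93 of its window. The windows of Acot1, Acot2, Acot3 and Acot7 held no such match, which says only that these letters were not in these windows. Among 33469 RefSeq start windows of that length, 0.439% held a match with at most 1 mismatch, and 0.0538% held the exact repeat.

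Signals are given as log2 of the processed signal minus the 75th percentile of the array, so a value of 0 is the brightness of that percentile. Levels of different probes cannot be set against each other, because each probe has its own brightness. Per array that percentile lay between 582.6 and 675.6 units, with 61.9% to 67.3% of the probes well above background. Slide and treatment overlapped in part: CCl4 replicate 1 shared a slide with all 3 corn oil rats, while CCl4 replicates 2 and 3 were on another slide with a different scan day. Within the shared slide (called the first slide) only 1 CCl4 rat can be set against 3 corn oil rats. Whole liver was measured, so fewer cells of a type and less RNA per cell cannot be told apart.

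Acot1, the cytosolic type I enzyme for long-chain acyl-CoA, was higher in every CCl4 rat. Its probe read 4.73, 5.19 and 4.42 in the CCl4 livers (replicates 1, 2 and 3), against 2.70, 2.16 and 3.34 in the corn oil livers. The lowest CCl4 rat lay 1.08 above the highest corn oil rat. In linear terms the signal was 26.6, 36.5 and 21.4 times the 75th percentile in CCl4 livers and 6.48, 4.46 and 10.2 times in corn oil livers. The difference was 2.05 ± 0.34 (log2, SE of the fit, n = 3 rats per group), or 4.14-fold. The rats within a group differed too, with an SD of 0.39 among CCl4 rats and 0.59 among corn oil rats. The difference was 2.00 within the first slide.

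Acot2, the mitochondrial type I enzyme, differed less, and its groups overlapped on both of its probes. The brighter probe read 5.49, 5.87 and 5.07 in CCl4 livers and 5.00, 4.92 and 5.11 in corn oil livers. Its difference was 0.47 ± 0.21 (SE, n = 3 per group). The dimmer probe read 0.71, 1.20 and 0.43 in CCl4 livers, against 0.31, 0.22 and 0.60 in corn oil livers. On both probes CCl4 replicate 3 lay below corn oil replicate 3, while CCl4 replicates 1 and 2 lay above all corn oil rats. The difference of the dimmer probe was 0.40 ± 0.22. Within each group the 3 rats stood in the same order for Acot1 and for both probes of Acot2, with CCl4 replicate 2 and corn oil replicate 3 highest. Close paralogs such as these may share signal, and without probe sequences this was not tested.

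**Figure D1:**
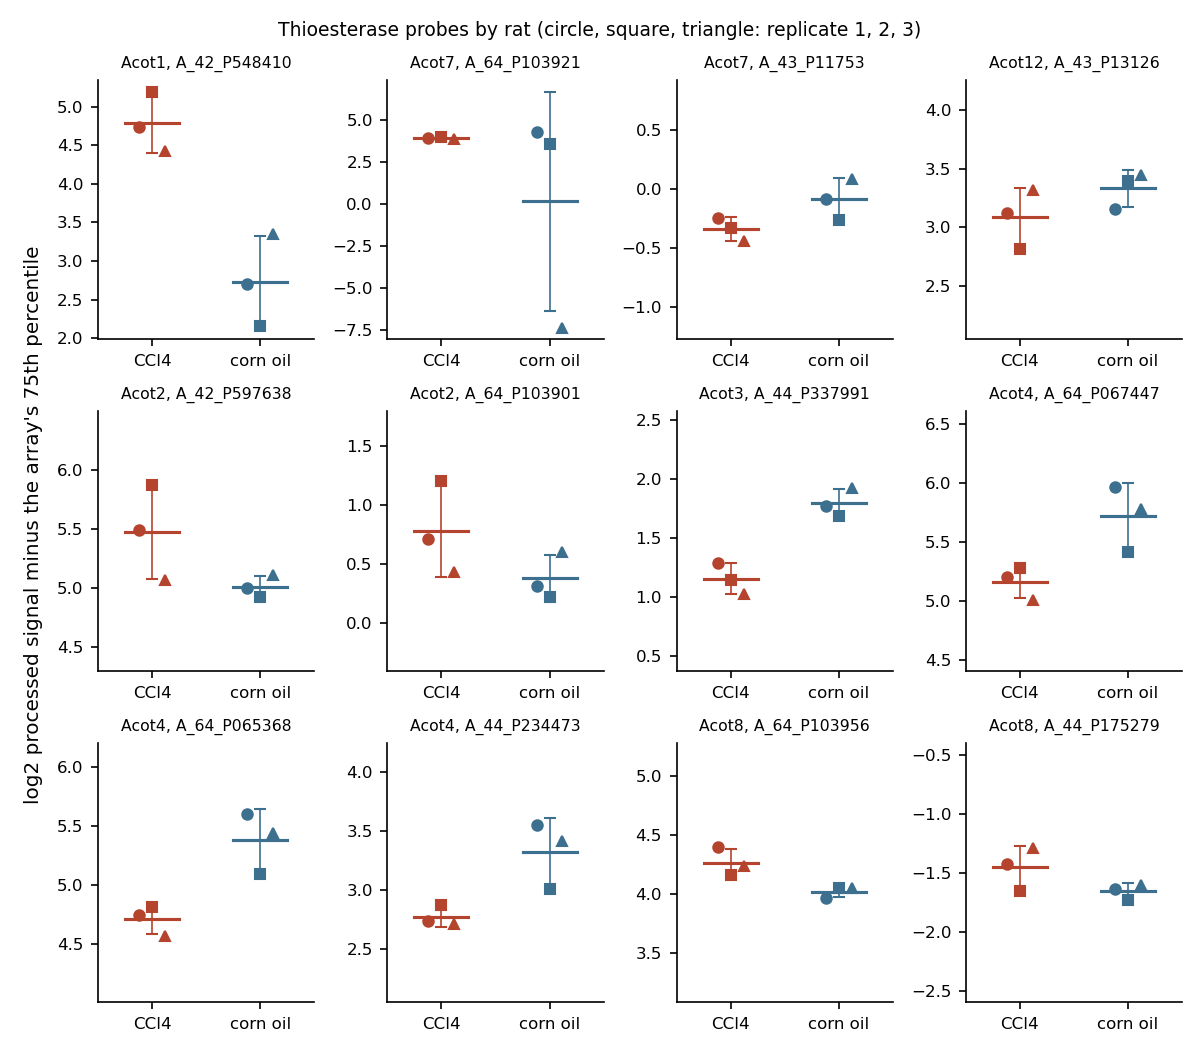
Each panel plots 1 probe, with the log2 processed signal minus the array's 75th percentile on the y axis and CCl4 left of corn oil. Points are rats, horizontal lines are means and bars are SD (n = 3), and the y range differs between panels. The CCl4 points of Acot1 sit between 4.42 and 5.19, above the corn oil points at 2.16 to 3.34, and 1 corn oil point of Acot7 lies at -7.38.

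Acot3 and Acot4, known in the mouse as peroxisomal enzymes, were lower in every CCl4 rat than in any corn oil rat. Acot3, whose mouse enzyme acts on long-chain acyl-CoA, read 1.29, 1.14 and 1.03 in CCl4 livers and 1.77, 1.69 and 1.92 in corn oil livers. The groups were narrow, with SDs of 0.13 and 0.12, and the difference was -0.64 ± 0.12 (SE, n = 3 per group), or 1.56-fold lower in CCl4. It was -0.50 within the first slide, the smallest size among the settings tried.

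Acot4, whose mouse enzyme acts on succinyl-CoA, had 3 probes, which gave similar differences. The brightest read 5.20, 5.28 and 5.01 in CCl4 livers, against 5.97, 5.41 and 5.78 in corn oil livers, a difference of -0.55 ± 0.17. The second read 4.75, 4.81 and 4.56 in CCl4 livers and 5.60, 5.09 and 5.44 in corn oil livers, a difference of -0.67 ± 0.16. The dimmest read 2.74, 2.87 and 2.71 in CCl4 livers and 3.55, 3.00 and 3.42 in corn oil livers, a difference of -0.55 ± 0.16. The groups did not overlap on any of the 3 probes, and corn oil replicate 2 was the corn oil rat nearest to the CCl4 rats on each.

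**Figure D2:**
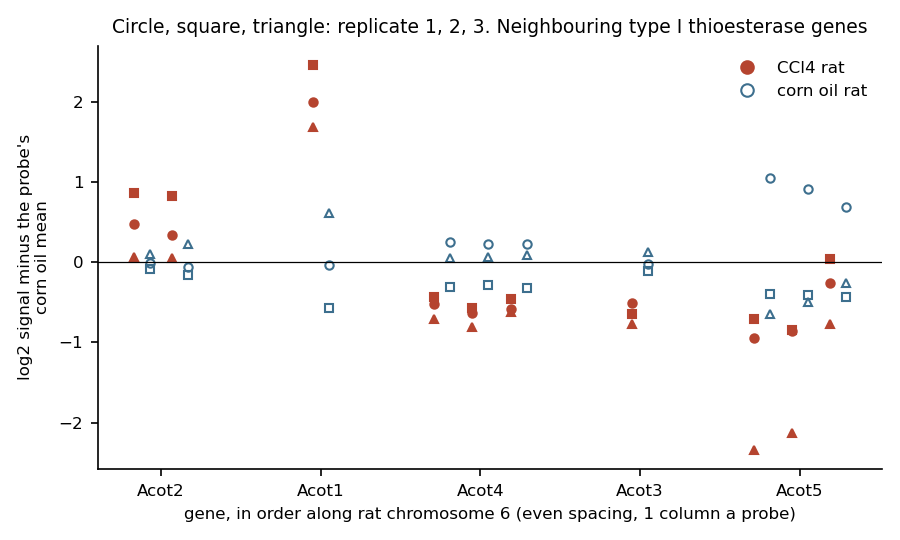
Probes of the 5 neighbouring type I genes with a probe that could be named stand in gene order along rat chromosome 6, with the log2 signal of each rat minus the probe's corn oil mean on the y axis. Filled points are CCl4 rats and open points corn oil rats. Acot1 rats given CCl4 lie far above 0, those of Acot4 and Acot3 lie below 0, and the spread among rats is widest for Acot5.

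These genes lie next to each other on chromosome 6, in the order Acot2, Acot1, Acot4, Acot3, Acot5 and Acot6 in the RefSeq annotation of GRCr8, with 1 other protein-coding gene, Rpl23al8, between Acot1 and Acot4. No probe could be named for Acot6. Along the cluster the differences were 0.47 for Acot2, 2.05 for Acot1, -0.55 for Acot4, -0.64 for Acot3 and -1.33 for Acot5, each for the brightest probe. Acot5, a peroxisomal enzyme in the mouse that is not among the 7 genes, averaged 3.62 ± 0.88 in CCl4 livers and 4.94 ± 0.92 in corn oil livers on that probe (SD, n = 3 each). Corn oil replicate 1, at 5.99, stood above and CCl4 replicate 3 below the other rats, and Acot5 did not pass (adjusted p = 0.276, limma). Its other probes gave -1.28 ± 0.50 and -0.33 ± 0.34, and the groups overlapped on the last. Without corn oil replicate 1 the difference of the brightest probe was -0.80, and without CCl4 replicate 3 it was -0.82.

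Acot8, a peroxisomal type II enzyme of broad specificity that also acts on bile acid-CoA, was slightly higher in CCl4 livers. Its bright probe read 4.40, 4.16 and 4.24 in CCl4 livers and 3.97, 4.05 and 4.05 in corn oil livers. The difference of 0.24 ± 0.11 (SE, n = 3 per group) left 0.11 between the nearest rats of the groups. The dim probe read -1.42, -1.65 and -1.29 in CCl4 livers, against -1.63, -1.73 and -1.60 in corn oil livers, with overlapping groups and a difference of 0.20 ± 0.13. Within the first slide the bright probe differed by 0.37, and without CCl4 replicate 1 by 0.18.

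Acot12, the cytosolic enzyme of rat liver that splits acetyl-CoA, read 3.12, 2.81 and 3.32 in CCl4 livers and 3.15, 3.40 and 3.44 in corn oil livers. CCl4 replicate 3 lay among the corn oil rats, and the difference was -0.25 ± 0.16 (SE, n = 3 per group).

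Acot7, an enzyme abundant in brain that acts on long-chain acyl-CoA, had 2 probes, for different transcripts, that disagreed in sign. The probe for NM_001146061 read 3.97, 4.03 and 3.90 in CCl4 livers and 4.30, 3.58 and -7.38 in corn oil livers, and corn oil replicate 3 was not well above background. This probe stood for the gene under the highest-mean rule and gave a difference of 3.80 ± 2.98, which rests on that 1 spot. Without it the difference was 0.03. Across the array 14 probes were well above background on 5 rats and more than 6 log2 units lower on the remaining array, and all 14 were low on corn oil replicate 3. These 14 spots lay between rows 15 and 32 and columns 156 and 164, of 384 rows and 164 columns. The rectangle drawn around them, called the low patch, holds 160 spots (0.260% of all), and the rest did not meet both conditions above. The scanner software had not flagged the Acot7 spot as an outlier. The probe for NM_013214 read -0.24, -0.33 and -0.44 in CCl4 livers, against -0.08, -0.26 and 0.09 in corn oil livers. Its groups overlapped, and its difference was -0.25 ± 0.13.

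**Figure D3:**
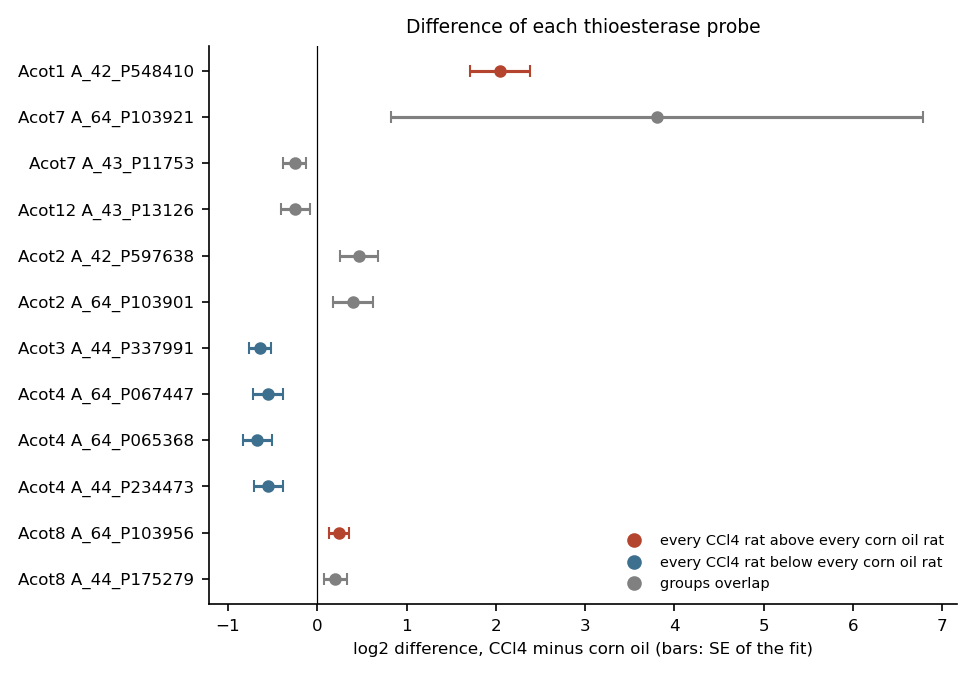
The x axis gives the log2 difference, CCl4 minus corn oil, of each of the 12 probes, with bars for the SE of the fit (n = 3 per group). Colours show whether the groups overlapped. Acot1 stands at 2.05, the Acot3 and Acot4 probes lie between -0.67 and -0.55, and the widest bar belongs to the Acot7 probe with the low spot.

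Over the 12 probes, the groups did not overlap for 2 that were higher in CCl4 and 4 that were lower, and they overlapped for 6. The lower ones include all 3 probes of Acot4. By gene, with 1 probe each, 2 of the 7 members were higher and 2 lower without overlap. Of all genes tested 27.4% did not overlap, 11.5% with CCl4 higher and 15.9% with CCl4 lower. The members were chosen on this contrast, so nothing is read from that comparison. Of the 4 members with several probes, the probes of 3 had 1 sign, and Acot7 was the exception. The median difference of the 7 members was 0.24, against -0.05 over all genes tested, and 0.03 without the spots of the low patch.

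By Pearson's correlation over the 6 arrays, among 11100 genes well above background on all of them, the patterns most like that of Acot1 belonged to Rps6ka3 (0.992), Olfml2b (0.991) and Gnas (0.991). Those most like Acot3 belonged to Tead3 (0.998), Creb3l3 (0.992) and Rnf111 (0.991). The points share the difference between the groups, so these values describe likeness only, and with 6 arrays many genes come close. Creb3l3, a liver transcription factor of lipid metabolism, read 7.34, 7.33 and 7.21 in CCl4 livers and 7.77, 7.73 and 7.87 in corn oil livers.

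Other enzymes that split thioester bonds gave no call. Of 18 listed, 14 were tested, and 0 passed limma's test with Benjamini-Hochberg adjustment over all genes, where 0.637% of all genes passed (0.561% higher and 0.0754% lower in CCl4). At an unadjusted p below 0.05 there were 4 of the 14, where 19.7% of all genes tested lay below it, and the median difference was 0.02. The largest differences belonged to Fasn, fatty acid synthase, whose last domain is a thioesterase (1.44 ± 0.34, adjusted p = 0.102), Acot5, given above, and Acot9, a mitochondrial enzyme in the mouse (0.94 ± 0.18, adjusted p = 0.0755). Acot9 read 1.60, 1.54 and 1.13 in CCl4 livers, against 0.38, 0.76 and 0.31 in corn oil livers, without overlap. Acot13 was at 0.12 ± 0.14 and Acot11 at -0.22 ± 0.18. Baat, which joins bile acids to amino acids, was at -0.26 ± 0.12, the lysosomal Ppt1 at 0.49 ± 0.15, and the protein depalmitoylases Lypla1 and Lypla2 at -0.10 ± 0.16 and -0.32 ± 0.12. Abhd10, Abhd17a, Hibch, Ppt2 and Them6 lay between -0.02 and 0.26.

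Acyl-CoA synthetases run the opposite reaction, and 1 of 20 tested rose, where 0.561% of all genes passed as higher in CCl4. Acsl3, a long-chain synthetase of the endoplasmic reticulum and lipid droplets, read 0.58, 0.47 and 0.64 in CCl4 livers and -0.59, -1.37 and -1.32 in corn oil livers. It rose 3.16-fold (1.66 ± 0.22, adjusted p = 0.0441, limma). Acsl1, the main long-chain synthetase of liver, was at -0.16 ± 0.15 (adjusted p = 0.568). The median of the list was 0.02, and 5 of its genes had an unadjusted p below 0.05 (19.7% of all genes did). Acsl3 no longer passed in 9 of the 19 other settings, among them slide as a fixed block and without corn oil replicate 2 or 3 or any CCl4 replicate.

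Textbook PPAR-alpha targets other than thioesterases had a median of -0.27 over 49 genes, and 37 of them had a negative difference. Of the 49 only Lpl, lipoprotein lipase, passed, where 0.637% of all genes did, and it rose (1.56 ± 0.17, adjusted p = 0.0252, limma). It read -1.46, -1.01 and -1.55 in CCl4 livers and -2.84, -2.81 and -3.06 in corn oil livers, and it no longer passed in 8 of the 19 other settings, among them slide as a fixed block. Unadjusted p was below 0.05 for 16 of the list, against 19.7% of all genes. The groups did not overlap for 18 with CCl4 lower and 3 with CCl4 higher, against 15.9% and 11.5% of all genes. Well-known members, chosen here after their values were seen, showed no call. Cpt1a, which starts mitochondrial fatty acid import, read 3.89, 4.33 and 4.97 in CCl4 livers, against 5.18, 5.34 and 5.15 in corn oil livers (-0.83 ± 0.27, adjusted p = 0.184). Ehhadh was at -0.13 ± 0.17 and Angptl4 at -0.50 ± 0.12 (adjusted p = 0.101). Crat, carnitine acetyltransferase, was low on corn oil replicate 3 alone, like Acot7: it read 5.75, 5.75 and 5.68 in CCl4 livers and 6.23, 6.23 and -4.58 in corn oil livers (3.10 ± 2.86, adjusted p = 0.572). Its low spot was still well above background, unlike that of Acot7, so it was not among the low spots counted above. Without corn oil replicate 3 the sign of Crat turned, to -0.50. Cyp4a1, a fatty acid omega-hydroxylase, was at -0.03 ± 0.20, and Acaa1b, a peroxisomal thiolase, at 0.39 ± 0.15.

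**Figure D4:**
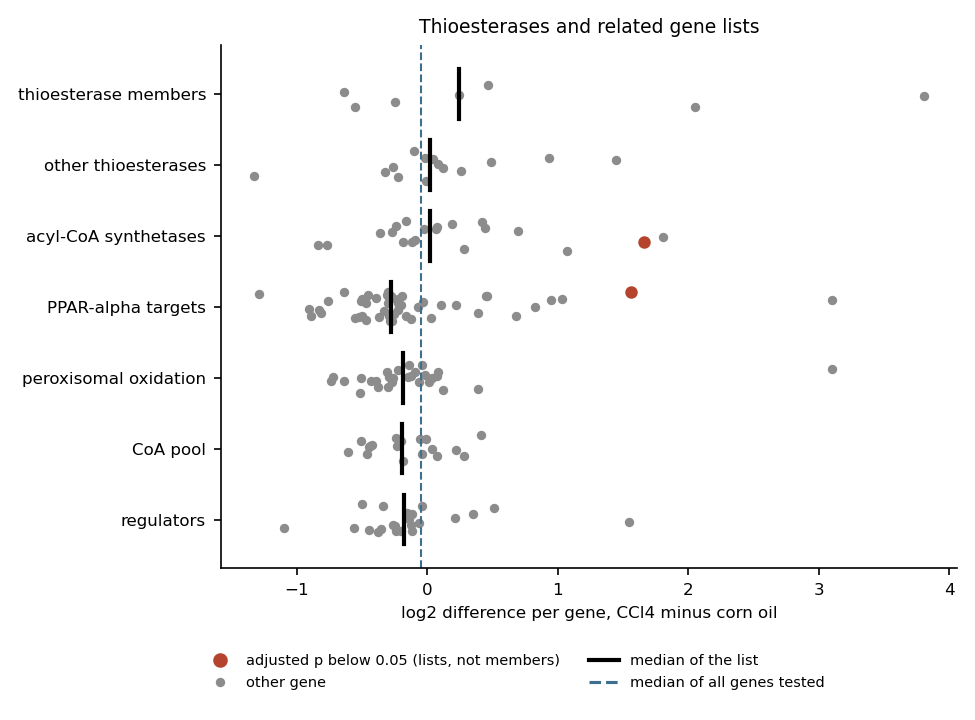
Points are genes by list, with the log2 difference, CCl4 minus corn oil, on the x axis. Black bars are list medians and the dashed line is the median of all genes tested (-0.05). The PPAR-alpha targets have a median of -0.27 with Lpl past the threshold, Acsl3 passed among the synthetases, and the members span -0.64 to 3.80, the last being the Acot7 probe with the low spot. The point at 3.10 in the target and peroxisomal lists is Crat.

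In the lists of peroxisomal oxidation (28 genes, median -0.19), the coenzyme A pool (18 genes, median -0.19) and regulators (22 genes, median -0.18), limma called 0 genes, with 7, 7 and 3 genes at an unadjusted p below 0.05, against 19.7% of all genes. Among the largest differences without overlap were those of Hacl1 (-0.74 ± 0.26) and Crot (-0.73 ± 0.33) in the first, Vnn3 (-0.60 ± 0.21) and Acbd4 (-0.46 ± 0.18) in the next, and that of the nuclear receptor gene Nr1i3 (-1.10 ± 0.20, adjusted p = 0.0725) among regulators. Ppara itself was at -0.16 ± 0.22 (adjusted p = 0.713) and Hnf4a at -0.34 ± 0.17 (adjusted p = 0.315). Dbi, the acyl-CoA binding protein, was at 0.28 ± 0.13 (adjusted p = 0.283). Over these 6 lists together, counting each gene once, 2 of 136 genes passed (1.47%, against 0.637% of all genes), both higher. The groups did not overlap for 40 genes with CCl4 lower and 12 with CCl4 higher, against 15.9% and 11.5% of all genes. The lists were chosen with earlier results of these data known, so these shares are descriptions and no enrichment is read from them.

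Of the marker lists of liver cell types, those of macrophages, dividing cells and lymphocytes held genes that passed, and those of hepatocytes, stellate cells, bile duct cells and endothelial cells held 0 in limma. Over all genes tested 0.637% passed (0.561% higher and 0.0754% lower in CCl4), and 19.7% had an unadjusted p below 0.05. The 12 hepatocyte markers were all well above background in both groups, 0 passed in limma (2 had an unadjusted p below 0.05), and their summed level was 6094 to 7061 times the 75th percentile in CCl4 livers and 7438 to 8035 times in corn oil livers. Apoa1 was at -0.53 ± 0.18, Fgb at -0.28 ± 0.13 and Alb at -0.21 ± 0.14. Of 16 macrophage markers Trem2 (4.33 ± 0.32, adjusted p = 0.0106), Gpnmb (3.04 ± 0.42, adjusted p = 0.0462) and Lgals3 (2.36 ± 0.15, adjusted p = 0.00729) rose. A further 7 had negative differences, between -0.60 and -0.28, and did not pass, among them C1qc at -0.60 ± 0.15 without overlap and Vsig4 at -0.50 ± 0.21. Trem2 was dim in corn oil livers (mean -4.20), which limits what the size of its difference can show. The summed macrophage level was 260 to 298 in CCl4 livers and 223 to 270 in corn oil livers. Of 9 genes of dividing cells 4 rose, among them Rrm2 (2.38 ± 0.18, adjusted p = 0.0114), and the sum was 12.5 to 15.6 in CCl4 livers and 5.27 to 6.79 in corn oil livers. Stellate cell markers summed to 148 to 166 in CCl4 livers and 99.1 to 194 in corn oil livers, with Timp1 (1.22 ± 0.21) and Col1a2 (0.99 ± 0.18) the largest without overlap and 0 of 12 past the threshold in limma (6 at an unadjusted p below 0.05). Bile duct markers summed to 2.63 to 5.42 in CCl4 livers, against 2.22 to 2.49 in corn oil livers, endothelial markers to 33.7 to 40.3 against 41.3 to 48.8, and lymphocyte markers, of which Gzma fell (-1.32 ± 0.14, adjusted p = 0.0252), to 4.88 to 5.14 against 4.91 to 6.25. Several of these marker calls were lost with slide as a fixed block, where the adjusted p was 0.136 for Trem2, 0.115 for Lgals3, 0.239 for Gpnmb and 0.195 for Gzma (limma). Of the dividing-cell genes Rrm2 passed there (0.0458), while Ccna2 (0.168) and Aurka (0.195), both called in the main fit, did not. With the replicate number as a block the adjusted p was 0.0705 for Rrm2, 0.0885 for Ccna2 and 0.0886 for Aurka (limma). Gpnmb (0.0830) and Gzma (0.0886) did not pass there either, while Trem2 and Lgals3 did (0.0492 each). The part of these cell types in the thioesterase values was not tested.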

How the data were processed

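Per the labels' protocols, 0.2 µg of total RNA from each of 6 rat livers was labelled with Cy3 for 1-colour Agilent arrays. Spot intensity in the deposited scanner output had been background-subtracted by Agilent Feature Extraction 10.7.1.1 per the file headers (10.7 in the submitters' processing notes), with flags for saturated, outlying and well-above-background spots. The authors' value table, also deposited, is on a linear ratio scale and was the processed intensity divided by 583.3 to 676.5 units per array, with column medians of 0.103 to 0.110. That divisor was inferred from the values.

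Groups came from the treatment label and replicate numbers from the titles. The labels call the replicates separate animals. Controls and 26 outlying probes were left out, and 28206 probes were named through unversioned RefSeq accessions in a table of assembly GRCr8. The array design names rn4, so no gene coordinates are given apart from the RefSeq start windows. Log2 signals minus the 75th percentile of each array went into limma 3.58.1 under R 4.3.3 (two-sided, Benjamini-Hochberg, threshold 0.05). A gene entered with a probe well above background on at least 3 arrays, and was represented by its brightest such probe. On simulated data of 11939 genes the test found 58.6% of changes of log2 size 1 and 87.2% of those of size 2, with 4.87% false calls. The simulated noise was independent between arrays, with no slide effect, so these rates need not hold for the real arrays. Precision is limited by 3 arrays per group.

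The members and lists were chosen with earlier results of these data known. Named were all members, other thioesterases, up to 3 called genes per direction of each further list or else its 2 largest changes without overlap, and the 3 genes most like the members with the largest difference in each direction. A gene that this rule named is not reported here. Same-numbered rats were not treated as pairs in the main fit. Their deviations correlated at -0.05, 0.16 and 0.02, against -0.18 to 0.15 for rats of unlike number. Deviations within a group depend on each other, so these values cannot exclude pairing. The normexp alternative used median spot signals in place of the planned means. Other software was statmod 1.5.0, matplotlib 3.10.9, pandas 2.3.3, numpy 2.4.6 and Python 3.11.15.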

Additional observations from a re-analysis of the deposited data

How the results depend on the processing

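The 19 other settings covered scaling, background correction, the authors' values, filters on dim probes, probe means, a variance trend, slide, pairing, leaving out each array, and, chosen after seeing the data, leaving out the spots of the low patch. Among the members, Acot1 stayed between 1.76 and 2.35, Acot2 between 0.27 and 0.67, Acot3 between -0.71 and -0.50, Acot4 between -0.71 and -0.43, Acot8 between 0.18 and 0.37 and Acot12 between -0.36 and -0.11, and the sign of Acot7 turned to -0.25 with the filter on all 6 arrays, which replaces its probe. That setting moved the members' median of 0.24 to -0.25, leaving out the patch moved it to 0.031, and leaving out 1 array gave 0.031 (without corn oil replicate 3) to 0.27.

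The 76 genes called became 214 under normexp, 139 with the filter on all 6 arrays, 156 with a variance trend, 4 with slide as a fixed block, 0 within the first slide and 10 with the replicate number as a block, and 2 (without CCl4 replicate 2) to 241 (without CCl4 replicate 3) when 1 array was left out. The 2 pathway genes called were both higher in CCl4. Under normexp they became 5 (2 higher and 3 lower), and with a variance trend 3 (2 higher and 1 lower). The count was 1 without a filter, 0 with slide as a fixed block, 0 with the replicate block, and 0 to 5 without 1 array. The cause of these changes was not tested.

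Signs turned for values near 0 that had not passed. These were Acsl1 (0.00071), Cyp4a1 (0.0015) and Ppt2 (0.022) under quantile normalization; Abhd10 (0.060), Hibch (-0.0011) and Ppt2 (0.051) under normexp; and Abhd10 (0.19) with probe means. With slide as a fixed block or within the first slide Abhd10 was at 0.16 and Cyp4a1 at 0.12. Leaving out 1 array also turned some signs, with ranges of -0.088 to 0.049 for Abhd10, -0.086 to 0.48 for Abhd17a, -0.15 to 0.13 for Cyp4a1, -0.28 to 0.021 for Ehhadh, -0.051 to 0.14 for Hibch, -0.36 to 0.045 for Ppara, -0.10 to 0.086 for Ppt2 and -0.0085 to 0.13 for Them6. Of the 1026 results of the 54 other named genes under these settings 62 lost their call and 11 gained one. Olfml2b and Acot11 lie close to background, which limits what their differences can show. Trem2, Lpl and Rps6ka3 were dim too, with corn oil means of -4.20, -2.90 and -2.76, so the sizes of their differences share that limit. Under normexp the difference of Trem2 fell from 4.33 to 2.75 and that of Lpl from 1.56 to 1.08. That of Rps6ka3 fell from 0.40 to 0.11.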
